A study of Rattus norvegicus with 6 samples.

Results

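The genes described here encode the mitochondrial respiratory chain and the ATP synthase, the enzymes of oxidative phosphorylation. Members were all probe sets whose annotation names exactly 1 gene and whose gene symbol begins with Nduf, Uqcr, Atp5 or Cox4 to Cox8, or is Sdha, Sdhb, Sdhc, Sdhd, Cycs or Cyc1. A probe set is a group of array probes that together read a transcript, or in some cases several related transcripts. A probe set annotated to 1 gene may therefore still not be specific to it. The rule found 101 probe sets of 55 genes among 8740 on the array. Complex I had 49 probe sets of 27 genes, complex II 1 probe set, of Sdha, complex III 7 of 4 genes, complex IV 27 of 13 genes and complex V, the ATP synthase, 17 of 10 genes. The names of 57 of the 101 probe sets begin with rc_, a class that is described apart from the other 44. Soluble cytochrome c (Cycs) had no member, because its probe set names several genes, and the rule found no probe set of Sdhb, Sdhc or Sdhd.

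The samples are primary cultures of cardiac fibroblasts from the ventricle of 1 to 2 day old rats, labelled Sprague-Dawley on 5 arrays and SD on 1 PTX array. The 3 control cultures received water, and the 3 PTX cultures received pertussis toxin for 24 h, a bacterial enzyme that modifies the alpha subunits of Gi and Go and so uncouples them from their receptors. Total RNA of each was read on 1 Affymetrix array as linear signal intensities, and having 3 arrays a group limits the precision. Whether the cultures of a group came from separate isolations is not stated in the labels. The p-values below therefore measure the spread between these 6 samples only, and that spread may be technical.

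Complexes I and II take electrons from NADH and succinate and pass them to ubiquinone, complex III moves them on to cytochrome c, and complex IV, cytochrome c oxidase, hands them to oxygen. Complexes I, III and IV pump protons across the inner membrane, and the ATP synthase lets them flow back to make ATP. Most subunits are encoded in the nucleus, and heart muscle, which is rich in mitochondria, has its own isoforms of some cytochrome c oxidase subunits.

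Control replicate 1 was the array least like the rest. Across probe sets, its log2 signals had Pearson correlations of 0.952 to 0.96 with those of the other 5 arrays, and the closest pair of arrays reached 0.985. Median signals were 63.1 to 68.85 and the 2% trimmed means 493 to 495. The main results are therefore given with all 6 arrays and without control replicate 1.

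Most respiratory chain and ATP synthase transcripts had slightly lower mean signals in the PTX cultures, and none of their probe sets passed the test with all 6 arrays. Changes are differences of group means of log2(signal + 16), PTX minus control. Of the 101 probe sets, 96 passed the filter on low signals and were tested. Their median change was -0.23, with the middle 50% between -0.30 and -0.07, and 76 of 96 (79.2%) were negative. Over all 5244 tested probe sets the median was -0.02 and 52.9% were negative. With limma and Benjamini-Hochberg adjustment over all tested probe sets, 0 of the 96 had an adjusted p under 0.05, where 0.0763% of all tested probe sets did; the smallest was 0.274. At an unadjusted p under 0.05, 8 were lower and 5 higher, which is 13 in all, against 4.61% and 7.97% of all tested probe sets. The groups did not overlap for 20 members that were lower with PTX (10.6% of all tested probe sets) and for 6 that were higher (12% of all). For 89 of the 96 the 95% confidence interval of the change lay within 2-fold in both directions. Over all 5244 tested probe sets this held for 4007.

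**Figure D1:**
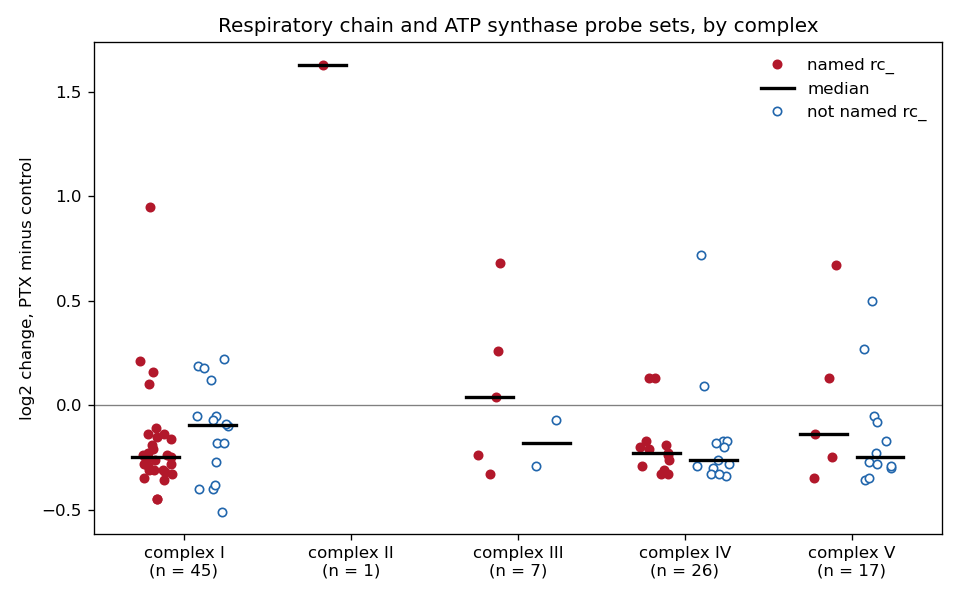
Log2 change, PTX minus control, of each of the 96 tested probe sets (points) by complex, with filled red points for names beginning with rc_, open blue points for the others, and a bar at each median. Most points of complexes I, IV and V lie a little below 0 in both classes, and the single probe set of complex II, Sdha, lies at 1.63.

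Members were mostly negative in both probe set classes, although the classes themselves had medians of opposite sign. The 53 tested members named rc_ had a median change of -0.24 with 41 negative, whereas all 2284 tested rc_ probe sets had a median of 0.13 and 36.9% negative. The 43 tested members of other names had a median of -0.18 with 35 negative, against -0.10 and 65.2% for all 2960 such probe sets. Groups apart and lower with PTX were seen for 12 of the 53 rc_ members (6.7% of all rc_ probe sets) and for 8 of the 43 others (13.6% of all others). Probe sets named rc_AA799 or rc_AA800 had a median change of 0.56 over 375 tested, or 0.27 over 377 without control replicate 1, and 6 of them are members. Those of Sdha and Atp5pb were positive and those of Cyc1, Ndufs8, Ndufb3 and Ndufa9 negative, and the median of the 6 was -0.13.

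Without control replicate 1 the shift was smaller, in both classes. The median change of the 96 members was -0.14, with 80 negative, and that of all tested probe sets -0.01. It was -0.15 for the rc_ members and -0.12 for the others, where all rc_ probe sets had 0.05 and all others -0.05. In this fit 1 member, Sdha, passed an adjusted p of 0.05 with limma, where 2.19% of all tested probe sets did. At an unadjusted p under 0.05 there were 9 lower and 5 higher members, against 5.78% and 9.63% of all tested probe sets. The groups were apart for 23 lower and 9 higher members, against 15.9% and 17% of all tested probe sets. Of the 96 members, 10 had opposite signs in the fits with and without that array.

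**Figure D2:**
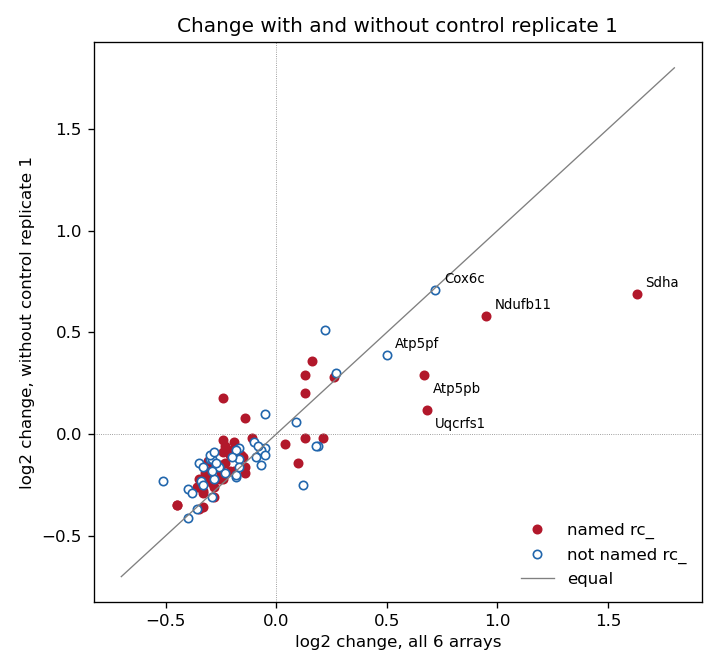
Log2 change of each tested member with all 6 arrays (x axis) and without control replicate 1 (y axis), with names beginning with rc_ filled red, others open blue, and the line of equality. Points far to the right lie below the line: Sdha goes from 1.63 to 0.69, Ndufb11 from 0.95 to 0.58 and Uqcrfs1 from 0.68 to 0.12.

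The members' signals on single arrays show where the shift lies. Control replicate 1 had the highest signal of the 6 arrays for 56 of the 96 members (58.3%, against 35.5% of all tested probe sets). PTX replicate 1 had the lowest for 43 (44.8%, against 16.7%). Among all tested rc_ probe sets control replicate 1 was the lowest array for 45.7% and the highest for 23.2%, whereas among the rc_ members it was the highest for 60.4%. Among the members not named rc_ it was the highest for 55.8%, against 45% of all such probe sets. The median deviation of the members from their own mean was 0.24 on control replicate 1, 0.10 on control replicate 2 and -0.02 on control replicate 3. On PTX replicates 1, 2 and 3 it was -0.17, -0.02 and -0.10, so control replicate 3 and PTX replicate 2 were at the same level.

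**Figure D3:**
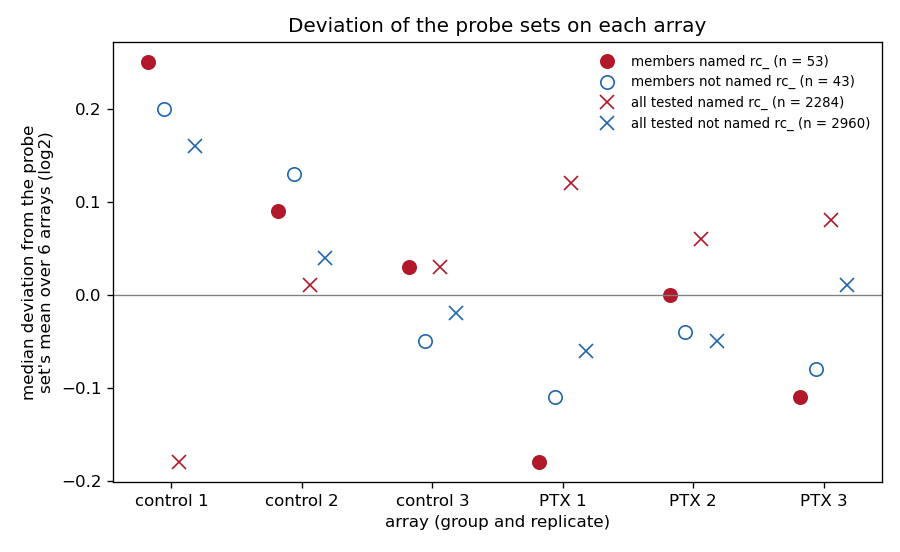
Median deviation (log2) of members (circles) and of all tested probe sets (crosses) from each probe set's mean over the 6 arrays, for each array and split by name class. Members of both classes are highest on control replicate 1 (0.25 and 0.20), while all rc_ probe sets are lowest there (-0.18) and the other probe sets are at 0.16.

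Signal brightness went with the change. The brightest 10% of tested probe sets, 525 in number, had a median change of -0.14 with 70.3% negative, and 63 of them were members, with a median of -0.23 and 81% negative. Among bright rc_ probe sets the median was -0.06 over all 221 and -0.22 over the 38 members. Among the other bright probe sets it was -0.17 over all 304 and -0.23 over the 25 members. After quantile normalization, bright probe sets had a median of -0.04 and bright members -0.14, and after cyclic loess normalization -0.03 and -0.10. On the 5 arrays left without control replicate 1 the medians were -0.08 for the 525 brightest and -0.14 for the 60 members among them. The part of brightness in the members' shift was not tested further. The median over the 96 members stayed negative under these scalings, at -0.16 with 75 negative and at -0.14 with 72 negative.

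RefSeq promoter sequences of the rat assembly GRCr8 were matched by Entrez gene identifier for 46 of the 55 genes. The 250 bases before the start of transcription are shown for 4 of them: Sdha and Atp5pf, whose probe sets were higher with PTX, Ndufs7, which had the smallest p of the members that were lower, and Cox8b, a heart isoform of cytochrome c oxidase. Both strands were searched for GCGCNNGCGC, the core of the NRF-1 site, for CCGGAAG, an ETS site of the kind bound by GABPA, and for TATAAA, the TATA box. NRF-1 and GABPA are known regulators of respiratory chain genes, and capitals mark the matches. The regions are chr1:30764303-30764552 (plus strand) for Sdha, chr11:37375102-37375351 (minus) for Atp5pf, chr7:10110499-10110748 (minus) for Ndufs7 and chr1:205408274-205408523 (minus) for Cox8b.
Sdha: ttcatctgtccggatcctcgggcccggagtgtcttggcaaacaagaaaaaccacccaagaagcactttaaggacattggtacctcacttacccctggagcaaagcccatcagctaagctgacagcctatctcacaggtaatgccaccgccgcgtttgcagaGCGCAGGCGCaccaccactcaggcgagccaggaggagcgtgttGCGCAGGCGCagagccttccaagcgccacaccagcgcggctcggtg
Atp5pf: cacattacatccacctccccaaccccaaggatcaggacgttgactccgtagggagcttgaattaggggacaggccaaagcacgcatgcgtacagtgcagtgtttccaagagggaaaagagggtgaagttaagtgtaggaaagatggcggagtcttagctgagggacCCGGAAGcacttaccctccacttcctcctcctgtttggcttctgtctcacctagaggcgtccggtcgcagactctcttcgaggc
Ndufs7: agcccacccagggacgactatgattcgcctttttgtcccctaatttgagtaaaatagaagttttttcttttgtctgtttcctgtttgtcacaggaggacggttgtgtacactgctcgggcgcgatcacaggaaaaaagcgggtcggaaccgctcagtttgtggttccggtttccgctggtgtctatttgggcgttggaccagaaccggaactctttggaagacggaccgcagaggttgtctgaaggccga
Cox8b: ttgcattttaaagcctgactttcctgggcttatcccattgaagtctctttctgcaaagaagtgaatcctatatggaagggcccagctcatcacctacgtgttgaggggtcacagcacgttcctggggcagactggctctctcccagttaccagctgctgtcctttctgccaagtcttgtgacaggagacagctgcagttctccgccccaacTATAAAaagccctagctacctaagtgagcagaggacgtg
The Sdha region holds 2 NRF-1 matches, that of Atp5pf 1 ETS match and that of Cox8b 1 TATA box, whereas none of the 3 motifs is in these letters for Ndufs7. Over the 46 promoters, 6 held the NRF-1 motif (13%), against 5.3% of all 27457 promoters in the table. The ETS motif was in 8 (17.4%, against 7.74%) and the TATA box in 2 (4.35%, against 13.1%). The 6 with NRF-1 matches were Atp5po, Ndufa5, Ndufs6, Ndufv2, Ndufv3 and Sdha, and 8 with ETS matches were Atp5f1a, Atp5pf, Cox5b, Cox8a, Ndufa6, Ndufs1, Ndufs8 and Uqcrc2. These matches are a description of sequence only.

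Complex I, NADH dehydrogenase, gave 45 tested probe sets, with a median change of -0.23 and 37 negative, or -0.17 and 39 negative without control replicate 1. Without PTX replicate 1 the median was -0.12, with 34 negative. Its 29 rc_ probe sets had a median of -0.25 and the other 16 of -0.09. The core subunits, which carry the redox centres, had 6 probe sets of 4 genes, all negative, with a median of -0.29, or -0.14 on the 5 arrays left without control replicate 1. Ndufs7, which holds the last iron-sulfur cluster before ubiquinone and whose promoter is shown above, had signals of 4881, 4122 and 3887.5 in the controls and 3237, 3236 and 2923 with PTX. All 3 PTX arrays lay below all 3 controls. The change was -0.45 ± 0.13 (SE) with a limma adjusted p of 0.281, and on 5 arrays, with control replicate 1 left out, it was -0.35 (adjusted p = 0.116). Ndufv2, which carries an iron-sulfur cluster near the NADH site, had a change of -0.38 ± 0.18 (SE), with PTX replicate 2 above control replicate 3, and -0.29 without control replicate 1. Ndufs8, another iron-sulfur subunit, had -0.27, -0.11 and -0.31 on 3 probe sets, or -0.15, -0.02 and -0.13 without that array. Ndufs1, the largest core subunit, had -0.05 at a signal of 284 ± 4.55 in the controls (SD, n = 3).

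Of the other genes grouped with complex I, those with Ndufa symbols had 12 of 12 tested probe sets negative (7 genes, median -0.25). Without control replicate 1 it was 11 of 12. Of these 12 probe sets, 5 read 1 gene, Ndufa4l2, so they do not stand for 12 subunits. Ndufa4, grouped here by its symbol although it is now counted as a subunit of complex IV, had 10254, 9838 and 9189 in the controls and 7975, 8740.2 and 7805 with PTX. Its groups did not overlap, at a change of -0.26 ± 0.11 (SE) and a limma adjusted p of 0.397, and the change was -0.22 without control replicate 1. Ndufa4l2, a relative of Ndufa4 known to be induced by low oxygen, is likewise grouped here by its symbol only. It was read by 5 dim probe sets with changes of -0.05 to -0.51, or -0.41 to 0.10 without control replicate 1. On the brightest of them it had 242, 186 and 179.8 in the controls and 135, 165 and 147 with PTX, again without overlap. The change there was -0.40, or -0.27 without control replicate 1. Ndufa8 had -0.35, with 1625 on PTX replicate 1 and 3149 to 3593 on the other 5 arrays, so only PTX replicate 1 was low. Ndufa3, Ndufa5, Ndufa6 and Ndufa9 had between -0.18 and -0.28. Ndufab1, the mitochondrial acyl carrier protein, had -0.36 on an rc_ probe set with groups apart and -0.07 on one of another name with overlap.

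Subunits with Ndufb symbols belong to the membrane arm of complex I, and 11 of their 14 tested probe sets were negative. Ndufb10 had signals of 3530.0, 2814 and 2892 in the controls and 2070.3, 2412 and 2241 with PTX, so all PTX arrays were lower. Its change was -0.45 ± 0.14 (SE), with a limma adjusted p of 0.303, or -0.35 without control replicate 1 (adjusted p = 0.138). Ndufb9 and Ndufb1 had -0.33 and -0.32 and were also apart. Ndufb3 had -0.16 and Ndufb5 -0.15 and -0.10, all with overlapping groups. Ndufb11 went the other way, with 1331, 2403 and 3485 in the controls and 4526, 4221 and 4250.0 with PTX. All PTX arrays were higher, and control replicate 1 was at 0.452 of the mean of the other controls. The change of Ndufb11 was 0.95 ± 0.31 (SE; limma adjusted p = 0.307), or 0.58 when control replicate 1 was left out (adjusted p = 0.0753). For Ndufb8, its bright probe sets had -0.24 and -0.31 and the 2 dim ones, with control means of 94.1 and 64.6, had 0.16 and -0.24. Leaving out control replicate 1 gave the bright ones -0.09 and -0.19 and the dim ones 0.36 and 0.18.

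The other accessory genes of complex I varied by probe set. Ndufs4 had -0.19 and -0.26, and Ndufs6 had -0.18 with groups apart. Ndufv3 was positive on both of its probe sets (0.19 and 0.12) and negative on both without control replicate 1 (-0.06 and -0.25), where the signal of that array was 0.592 and 0.41 of the mean of the other controls. Ndufc2 likewise had 0.21, and -0.02 without that array. Ndufaf3, an assembly factor, had 0.18, 0.22 and -0.28, all with overlapping groups.

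Complex II was represented by Sdha alone, the flavoprotein subunit that oxidises succinate. Its signals were 465.5, 3113 and 3644 in the controls and 6040.5, 5249.8 and 5112 with PTX. Every PTX array was above every control, and control replicate 1 stood at 0.138 of the mean of the other controls. The change was 1.63 ± 0.68 (SE) with a limma adjusted p of 0.39. Without control replicate 1 it was 0.69 ± 0.11 (SE; adjusted p = 0.014), so Sdha rose in that comparison. With limma fitted without an intensity trend, or with no filter on low signals, it did not pass on those 5 arrays. Sdha is read by 1 probe set of the rc_AA800 kind, a class that was low on control replicate 1. On the 5 arrays without it, 80.1% of the 377 probe sets named rc_AA799 or rc_AA800 were still positive and 13% were called higher, a share to set beside the call of Sdha.

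**Figure D4:**
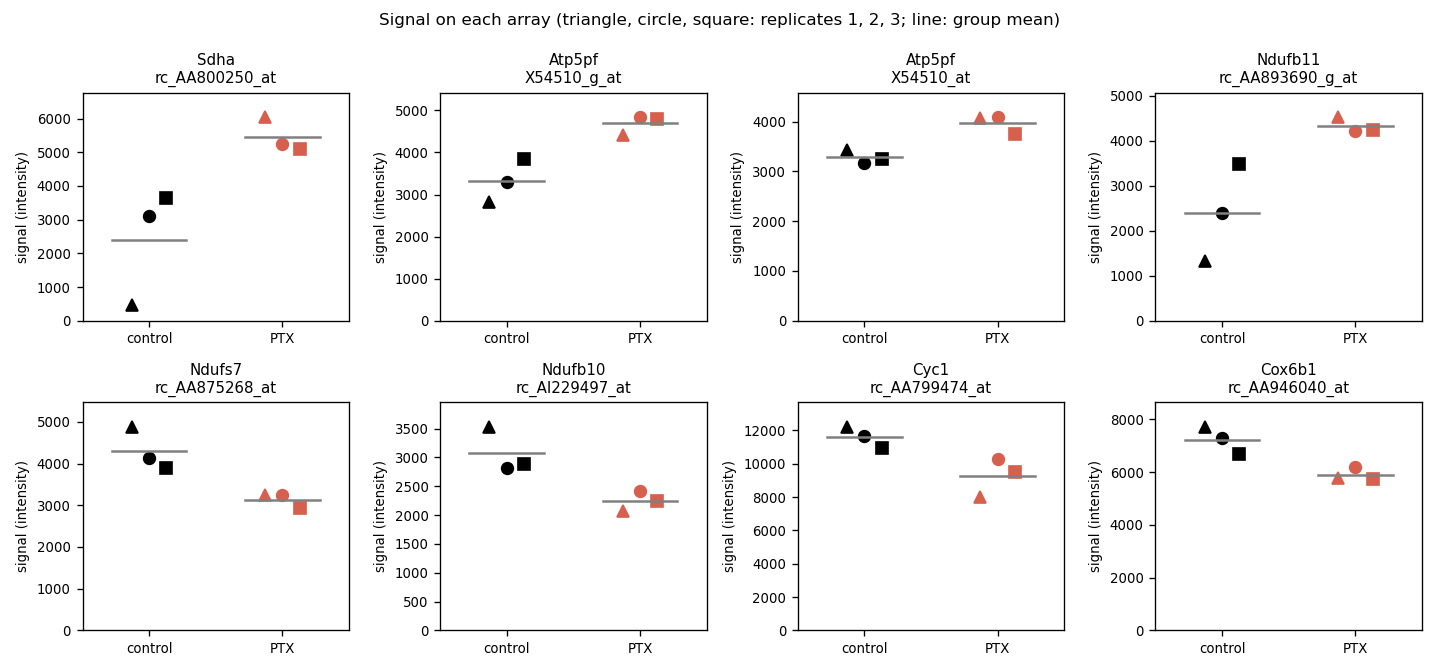
Signal (linear intensity, axis from 0) of 8 probe sets on each array, with controls in black, PTX in red, a triangle, circle or square for replicates 1, 2 and 3, and a line at the group mean. Sdha, Atp5pf and Ndufb11 are higher on every PTX array, and Ndufs7, Ndufb10, Cyc1 and Cox6b1 lower on every PTX array.

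Complex III had 7 tested probe sets of 4 genes and no common direction, with 4 negative and a median of -0.07, or -0.12 without control replicate 1 and 0.01 without control replicate 2 or with cyclic loess normalization. Cyc1, the cytochrome c1 that hands electrons to cytochrome c, had 12216.5, 11661 and 10939.9 in the controls and 8025, 10285 and 9516 with PTX. All 3 PTX arrays were lower, at a change of -0.33 ± 0.13 (SE; limma adjusted p = 0.366), or -0.29 without control replicate 1. Uqcr11, a small subunit, had 0.26 on one probe set and -0.24 on the other, each with groups apart, so the probe sets of this gene disagreed. Uqcrfs1, the Rieske iron-sulfur protein, had -0.07 and -0.29 on probe sets not named rc_, or -0.15 and -0.12 without control replicate 1. On its rc_ probe set it had 1076, 2984 and 4209.6 in the controls and 4023, 3586 and 3926 with PTX, a change of 0.68 that was 0.12 without control replicate 1. Uqcrc2, a core protein on the matrix side, had 0.04, or -0.05 without that array.

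Complex IV had 26 tested probe sets of 12 genes, with 22 negative and a median of -0.23, or 22 negative and -0.11 without control replicate 1. Both classes had 11 of 13 negative. Cox6b1, a subunit on the cytochrome c side, had 7722, 7292 and 6688 in the controls and 5762.5, 6212 and 5759 with PTX. The groups did not overlap, and the change was -0.29 ± 0.11 (SE; limma adjusted p = 0.366), or -0.24 without control replicate 1. Its second probe set had -0.26, with 1 PTX array above the lowest control. Cox7a2l, which takes part in joining complexes III and IV, had -0.33 on each of its 2 probe sets, with groups apart on both (-0.23 and -0.36 without control replicate 1). Cox4i1, the subunit to which ATP binds, had -0.26, -0.19 and -0.18, which became -0.16, -0.04 and -0.08 without that array. Cox4i2, its lung and hypoxia isoform, had 0.13 at signals of 248 ± 22 and 273 ± 13.2 (SD, n = 3 each). Cox5b had -0.31 and 0.09, Cox7b -0.17 and Cox5a, on a dim probe set, 0.13. Cox6c had -0.28 on one probe set and 0.72 on another whose signals were 24.7 to 30.3 in the controls and 31.9 to 81.1 with PTX, among the dimmest that were tested. That dim Cox6c probe set was the highest of the complex.

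The heart isoforms Cox6a2 and Cox8b were set beside the isoforms of most tissues, Cox6a1 and Cox8a. The heart isoforms had 5 of 5 probe sets negative (median -0.29) and the others 7 of 7 (median -0.23), or -0.16 and -0.10 without control replicate 1. On the brightest Cox6a2 probe set the controls had 25608, 19504 and 17007 and PTX had 16011.5, 17182 and 15657. Control replicate 1 was the highest array and the groups overlapped. The log2 ratio of the Cox6a2 to the Cox6a1 signal is of different probe sets and so serves at most to follow a change. The first is not named rc_ and the second is, and these classes had medians of -0.10 and 0.13 over all tested probe sets. On their rc_ probe sets Cox6a2 and Cox6a1 had changes of -0.20 and -0.21. The ratio was 0.24 ± 0.16 in the controls and 0.12 ± 0.06 with PTX (SD, n = 3 each, exact two-sided permutation p = 0.4). For Cox8b over Cox8a it was -2.04 ± 0.23 and -2.07 ± 0.35 (exact permutation p = 0.9). The smallest p that 3 against 3 arrays allow is 0.1, so neither ratio could have passed.

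The ATP synthase had 17 tested probe sets of 10 genes, with 13 negative and a median of -0.23, or 14 negative and -0.12 without control replicate 1. The catalytic F1 part (Atp5f1a to Atp5f1e) had 7 of 7 negative, with changes of -0.05 to -0.35 and no gene with groups apart, or -0.06 to -0.22 without control replicate 1. Atp5f1b, the catalytic beta subunit, had 18690.2, 20394 and 18432 in the controls and 19236, 15767 and 17179 with PTX. Its groups overlapped at -0.14, and the sign turned to 0.01 with quantile and with cyclic loess normalization.

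The peripheral stalk, which holds F1 still against the rotating ring, split by gene. Atp5pf, coupling factor 6, had 2821, 3306 and 3839.9 in the controls and 4424, 4837 and 4803 with PTX on one probe set. On the other it had 3438, 3175 and 3249 against 4075, 4090.2 and 3754. On both, all 3 PTX arrays were above all 3 controls. The changes were 0.50 ± 0.14 and 0.27 ± 0.11 (SE), with limma adjusted p of 0.274 and 0.383, the first being the smallest of all members. Without control replicate 1 they were 0.39 and 0.30 (adjusted p = 0.0949 and 0.158). Atp5pf was the only gene with several tested probe sets that was positive on all of them both with and without that array. Its probe sets are named after the same sequence, so they are not separate reads of the gene. Atp5pb, subunit b, had 0.67 with overlapping groups (0.29 without control replicate 1), and its signal on that array was 0.446 of the mean of the other controls. Atp5pd and Atp5po had -0.30 and -0.35, and a second Atp5po probe set -0.23, which became -0.12, -0.14 and -0.19 without control replicate 1. Atp5if1, the protein that inhibits the enzyme when the proton gradient fails, had 4207, 4657 and 3912 in the controls and 3818, 3136 and 2987 with PTX on its brightest probe set. The groups were apart there, at a change of -0.36 ± 0.14 (SE; limma adjusted p = 0.366), or -0.37 without control replicate 1. Its other probe sets had -0.29, -0.17 and 0.13, the last turning to -0.02 without that array.

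In 27 genes several probe sets were tested, and in 19 of these they had the same sign, 17 negative and 2 positive, Atp5pf and Ndufv3. For some genes, among them Atp5pf, Ndufv3, Atp5f1d, Atp5f1e, Atp5po and Ndufs4, the names of the probe sets differ only in their ending. Such probe sets are named after the same sequence, so their equal signs do not count as separate reads. Without control replicate 1 they had the same sign in 20, of which 19 were negative. The median distance between the lowest and highest change of a gene was 0.16. Of the 27 genes, 11 were read by both name classes.

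**Figure D5:**
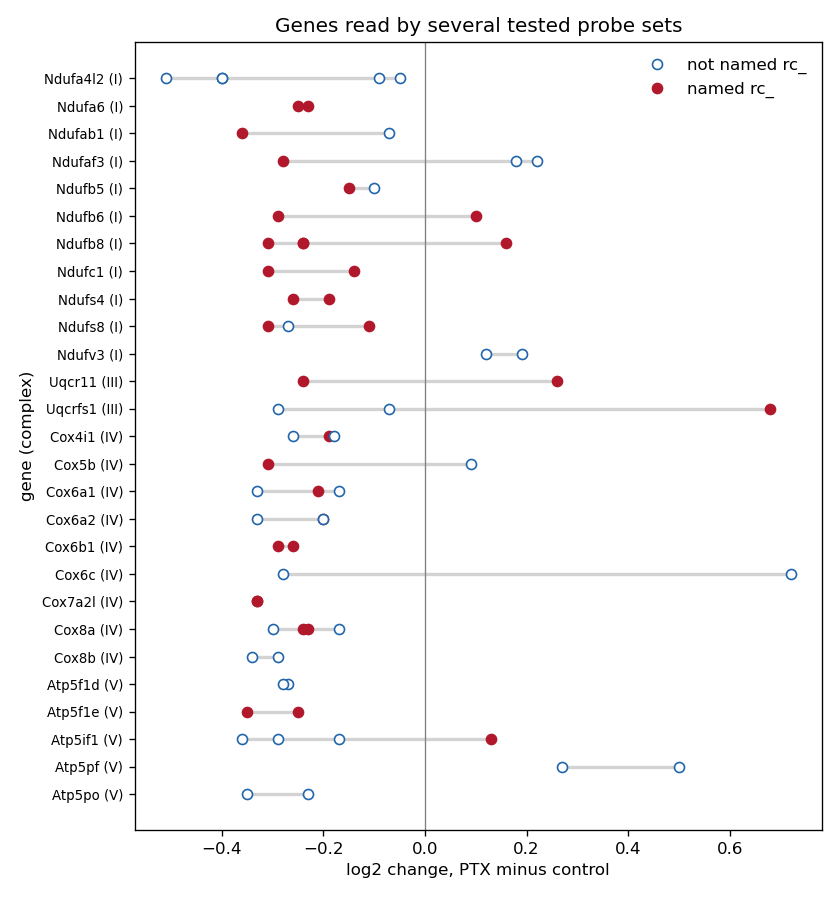
Log2 change, PTX minus control, of each tested probe set (points) of the 27 genes with several, joined by a line per gene, with the complex in brackets and names beginning with rc_ filled red. The probe sets of 17 genes lie left of 0, those of Atp5pf and Ndufv3 right of it, and those of 8 genes, Uqcrfs1 and Cox6c the widest, on both sides.

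Of the 101 members, 5 were not tested because of low signals. They were 1 probe set each of Ndufs8, Ndufab1, Ndufb11 and Ndufs4, all named rc_ and each with another tested probe set of the gene, and the only one of the pseudogene Cox6c-ps1, with signals of 1.7 to 4.2. A further 7 probe sets name several genes, among them Atp5mc1, Atp5mc2, Cox7a2 and Cycs, and are no members. The one that holds Cycs had a signal of 695 on control replicate 1 and 2851 to 3490.5 on the other arrays.

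Other genes of mitochondrial energy metabolism were mixed. A list of assembly factors, carriers and electron entry genes had 12 tested genes, none of them an assembly factor. Of these 12, 7 were negative, 0 passed with limma and the median was -0.14. The adenine nucleotide carriers Slc25a4 and Slc25a5, which exchange ATP for ADP, each had -0.21. Slc25a3, the phosphate carrier, had 0.92 on an rc_ probe set, or 0.05 without control replicate 1. Of 12 tested genes of the tricarboxylic acid cycle and pyruvate dehydrogenase, 6 were negative with a median of -0.01. Cs, citrate synthase, had 425 ± 110 and 786 ± 40.4 (SD, n = 3 each), a change of 0.90 (limma adjusted p = 0.204), and it rose when control replicate 1 was left out (0.68, adjusted p = 0.0212). Its probe set is of the rc_AA799 kind, like those whose share of higher calls is given beside Sdha. No other gene of these lists passed in either fit. Of the listed regulators of mitochondrial genes only Esrra (0.63, or 0.04 without control replicate 1) and Ppara (-0.35) were tested.

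The cultures held bright transcripts of cardiomyocytes, cells that are rich in mitochondria. Of 15 tested cardiomyocyte markers, among them Ckmt2 of the carrier list, 11 were in the top 5% of signals on all 6 arrays, 12 were negative and their median change was -0.22, or -0.10 without control replicate 1. Their summed signal was 306392 to 386019 in the controls and 266683 to 300662 with PTX, without overlap. The 3 positive markers included Actn2, on an rc_AA800 probe set, which was higher on every PTX array. It had 1.02, or 0.10 without control replicate 1. Over the brightest 10% of all tested probe sets the median change was -0.14, or -0.08 without control replicate 1. Over the 304 of these not named rc_ it was -0.17, with 80.9% negative on all 6 arrays. The part of brightness in the lower signals of the cardiomyocyte markers was not tested. The 10 tested fibroblast markers summed to 83812 to 100000 and 87819 to 91926, with a median change of 0.11. They went both ways: Thy1 had -0.97 (limma adjusted p = 0.0743) and Lum 1.10 (adjusted p = 0.236), and on the 5 arrays without control replicate 1 Thy1 fell (-0.95, adjusted p = 0.00791) and Lum rose (0.74, adjusted p = 0.00662). Macrophage markers (5 tested) summed to 3072 to 3187 and 3579 to 4781, also without overlap, with Lyz2 at 0.52 and C1qb and C1qc at -0.39 and -0.24. The sums were, for smooth muscle markers (5 tested), 22708 to 24928 and 22931 to 23855, and for endothelial markers (2 tested) 125 to 174 and 101 to 146. The part of these markers in the members' shift was not tested. In bulk RNA, fewer cells of a type and less RNA per cell cannot be told apart.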

How the data were processed

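Transcript levels of 6 cultures were read on 1-colour Affymetrix arrays, and the sample titles gave the groups and replicate numbers. Per the submitters' processing notes the authors used GCOS, the Affymetrix software; for its version and scaling, nothing is given in the sources used here. The table they deposited holds linear intensities of 8740 probe sets on each array, used without further scaling because their trimmed means are alike. Detection calls were not used. Genes come from the platform annotation, where 7006 probe sets name 1 gene symbol, 308 several and 1426 none. All 101 members matched the RefSeq gene table of GRCr8, used for names only, with 0 changed symbols.

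Intensities were analysed as log2(signal + 16), a scale that understates changes of low signals. Probe sets with a mean under the 40th percentile were left out, and the other 5244 were tested with limma 3.58.1 in R 4.3.3 (linear model with moderated variances that follow an intensity trend; two-sided, Benjamini-Hochberg over all tested probe sets, threshold 0.05). Without control replicate 1 the filter and fit were repeated. The procedure was tested on simulated data of 3 against 3 arrays, with 200 of 5244 probe sets changed. It recovered 14.9% of 1.5-fold, 63.5% of 2-fold and 95.2% of 4-fold changes, and 6.3% of its calls were false. The simulated errors were independent between arrays and probe sets, with no outlying array such as control replicate 1 and no shift of a name class. These shares may therefore differ in the real data, and the fit without control replicate 1 was not simulated. Smaller changes, such as those of most members, were not simulated, so a member that did not pass may still have changed. Medians over members are descriptions with no test.

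The text names members past the threshold in either fit, the 2 smallest p per direction and the brightest probe set of each complex, genes read by both name classes, the cytochrome c oxidase isoforms, Sdha and Atp5pb. Other members and list genes were picked as examples with their values known. The members, marker lists and tests were chosen with earlier results of these data known. Alternatives changed the pseudocount, filter, scaling, variance model, replicate block, probe set choice and arrays.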

Additional observations from a re-analysis of the deposited data

How the results depend on the processing

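At an unadjusted p under 0.05 with limma, 13 of the 96 members were called on all 6 arrays. With 1 array left out it was 5 (without PTX replicate 3) to 36 (without control replicate 3). Without control replicate 3 the members' smallest adjusted p was 0.0845, and 30 of all 5244 tested probe sets passed, against 4 on all arrays. With all 6 arrays, 0 members passed under every alternative that kept all arrays, and leaving out 1 array at a time gave 0 to 1, the 1 being Sdha without control replicate 1. On the 5 arrays without control replicate 1, the 1 member became 0 with no filter and 0 without a trend, and leaving out 1 further array gave 0 (without control replicate 2) to 4 (without control replicate 3); where a control arm then holds 1 array, it is assumed to vary like the others. The replicate numbers showed no sign of pairing the arrays (same-numbered deviations over all tested probe sets correlated at -0.09, -0.11 and -0.01). With 3 arrays a group, these values cannot exclude pairing. With the replicate block 0 members passed on all arrays and 2 without control replicate 1, Sdha and Ndufb11. In the latter fit PTX replicate 1 is alone in its block and does not enter the changes. The members' median stayed between -0.14 and -0.30 over single changes, and was -0.11 and -0.10 with control replicate 1 left out and quantile or cyclic loess normalization, 2 settings added after seeing the data, as were all settings on those 5 arrays, where the median was -0.09 with the replicate block and -0.07 to -0.20 with 1 further array left out (-0.07 without control replicate 2, -0.09 without PTX replicate 1), and the median without the rc_AA799 and rc_AA800 members (-0.23). For members not named rc_ the median was -0.28 with the brightest probe set of each gene and -0.29 to -0.12 with 1 array left out. For the 52 probe sets taken up by the naming rule, 827 values under alternatives were computed, of which 815 kept sign and call, 11 turned sign and 1 newly passed; other probe sets given as examples, such as those of Ndufv3, Uqcrc2 and Ndufb8, are not in this tally. Those that turned were Atp5f1b (0.01 with quantile, 0.01 with cyclic loess normalization), Uqcrfs1 on M24542cds_at (0.01 with cyclic loess; -0.15 to 0.03 with 1 array left out) and, with 1 array left out, Ndufc2 (-0.02 to 0.35), Atp5if1 on M35300_f_at (-0.28 to 0.02) and rc_AA891873_f_at (-0.02 to 0.22), Ndufaf3 on U95161_s_at (-0.06 to 0.31) and U95162_at (-0.03 to 0.51), and Ndufb5 on AA684537_at (-0.20 to 0.01) and rc_AA893185_at (-0.28 to 0.01). The cause was not tested. Signals near the low end are imprecise, since no detection calls bound them.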
